A study of Mus musculus with 6 samples.

Results

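Collagen chains are the polypeptides that wind in threes into collagen molecules. Here they are the 44 genes, of 55414 gene identifiers in the deposited table, whose mouse symbol is Col, a type number, the letter a and a chain number. Their transcripts were measured by RNA-seq in the mouse line AY-mICC, which the series places among models of intrahepatic cholangiocarcinoma, the bile duct cancer that starts within the liver. Control cells (shCon, 3 libraries) were compared with cells whose Copa transcript was lowered (shCopa, 3 libraries), the labels' prefix being the usual one for a short hairpin RNA. Both groups were of the same line, grown in DMEM with fetal bovine serum and antibiotics, and neither received a further treatment. The labels do not state whether replicates were grown as separate cultures, nor how many hairpins or clones were used, so the p-values describe a spread among libraries that may be technical. Of the 44 chains, 25 had enough counts to be tested and 19 did not.

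Each collagen chain carries long runs of a short repeat that begins with glycine, which lets the chains form a triple helix. The chains are assembled in the endoplasmic reticulum (ER), where prolines and lysines are hydroxylated and the chaperone HSP47 binds the finished helix, and are then exported through the Golgi apparatus. Fibrillar collagens form the cables of connective tissue, whereas type IV collagen forms the sheet-like network of basement membranes, on which bile duct epithelium rests. Copa encodes a subunit of COPI, the coat of vesicles that return proteins from the Golgi to the ER, among them ER-resident helpers of collagen folding.

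The library totals ran from 19634938 to 24546204 estimated counts, so that 3 counts in a library corresponded to 0.122 to 0.153 CPM, the count scaled to a common library total. Copa stood at 420, 517 and 527 CPM in shCon 1 to 3 against 186, 182 and 187 CPM in shCopa 1 to 3, which left 37.9% of the control level in the fit. Of 10 bile duct epithelium markers, 9 had a mean of at least 1 CPM and the exception was Epcam. Their summed level was 11457 to 14579 CPM in shCon and 8572 to 9054 CPM in shCopa. Of 12 fibroblast and stellate cell markers, 3 reached a mean of 1 CPM (Dcn, Pdgfrb and the chain Col1a1), Lrat had no count, and the sum ran from 185 to 224 CPM in shCon and from 171 to 185 CPM in shCopa. That sum was nearly all Dcn, which did not pass, and single low markers differed from it: Acta2 rose from 7, 3 and 7 counts in shCon 1 to 3 to 27, 41 and 26 counts in shCopa 1 to 3, and Pdgfrb fell (-1.66 on the log2 scale). Postn, at 4, 4 and 2 counts in shCon and 24, 9 and 16 in shCopa, and Des, at 3, 2 and 2 counts in shCon and 9, 13 and 10 in shCopa, were too low to test. All 5 endothelial markers had a mean under 1 CPM, with a sum of 0.411 to 0.601 CPM in shCon and 2.52 to 4.55 CPM in shCopa. Kdr rose from 3, 1 and 1 counts in shCon 1 to 3 to 26, 42 and 52 counts in shCopa 1 to 3. Vwf rose from 6.28, 9.89 and 8.12 estimated counts in shCon to 22.0, 18 and 19 in shCopa. Of 6 leukocyte markers, only Cd68 reached a mean of 1 CPM, and the sum was 12.9 to 14.3 CPM in shCon and 15.0 to 16.6 CPM in shCopa. Cd68 itself did not pass, while Ptprc rose from 0, 1 and 1 counts in shCon 1 to 3 to 21, 25 and 25 counts in shCopa 1 to 3. In 7 hepatocyte markers the sum was 12.6 to 16.7 CPM in shCon and 33.0 to 34.9 CPM in shCopa, and Alb and Hnf4a rose. In every shCon library, Acta2, Kdr, Vwf and Ptprc were under the minimum of the filter on low counts, 0.443 CPM. These 4 genes were therefore tested through the shCopa libraries alone. The part of these cell type markers in the results was not tested, and in bulk RNA a smaller share of cells of a type and less RNA per cell cannot be told apart.

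Among the controls, shCon 1 was the least alike: across genes on the log2 CPM scale it correlated at r = 0.9734 with shCon 2 and 0.9719 with shCon 3, which correlated with each other at 0.9898. Its deviation from the mean of all libraries correlated with transcript length across 14781 genes at a Spearman rho of -0.397, against 0.055 to 0.198 in the other libraries. With GC content, the rho was 0.334 in shCon 1, against 0.041 and -0.106 in shCon 2 and 3. In shCopa 1 to 3 the rho with GC content was -0.255, -0.081 and -0.127. The tested collagen chains had a median transcript length of 6.46 kb, against 3.27 kb over all tested genes. Their median GC content was 56.7%, against 49.2% over all tested genes. In 19 of the 25 tested chains shCon 1 was lower than both other shCon libraries, which was so for 43.8% of all tested genes. Values of the chains without shCon 1 are therefore given wherever a call or direction changed.

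In shCopa, 12 of the 25 tested chains rose, 4 fell and 9 did not pass (edgeR quasi-likelihood test, Benjamini-Hochberg adjusted over 14807 genes, threshold 0.05). Over all tested genes 36.5% passed, 18.2% as higher and 18.4% as lower. The rises were of Col2a1, Col4a1, Col4a2, Col4a6, Col5a3, Col7a1, Col9a3, Col11a2, Col15a1, Col20a1, Col22a1 and Col27a1. The chains that fell were Col6a1, Col6a2, Col14a1 and Col18a1. The median log2 fold change of the tested chains was 0.55 and that of all tested genes -0.01. These counts are a description of chains that passed the filter on low counts: 5 passed through the shCopa libraries alone (Col2a1, Col5a3, Col6a3, Col15a1 and Col22a1) and 1 through the shCon libraries alone (Col14a1). Among the 14 chains with a mean of at least 10 CPM over all libraries, 5 rose, 3 fell and 6 did not pass, beside 17.5% higher and 21.7% lower among all 9590 genes at that level; their median log2 fold change was 0.15, against -0.03 for all genes at that level, so that the median of 0.55 rests on the chains with lower counts. In 19 of the 25 tested chains the 2 groups did not overlap, beside 54% of all tested genes. With 1 library left out at a time, 7 to 13 chains rose, with 7 in the fits without shCopa 1 or shCopa 3.

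**Figure D1:**
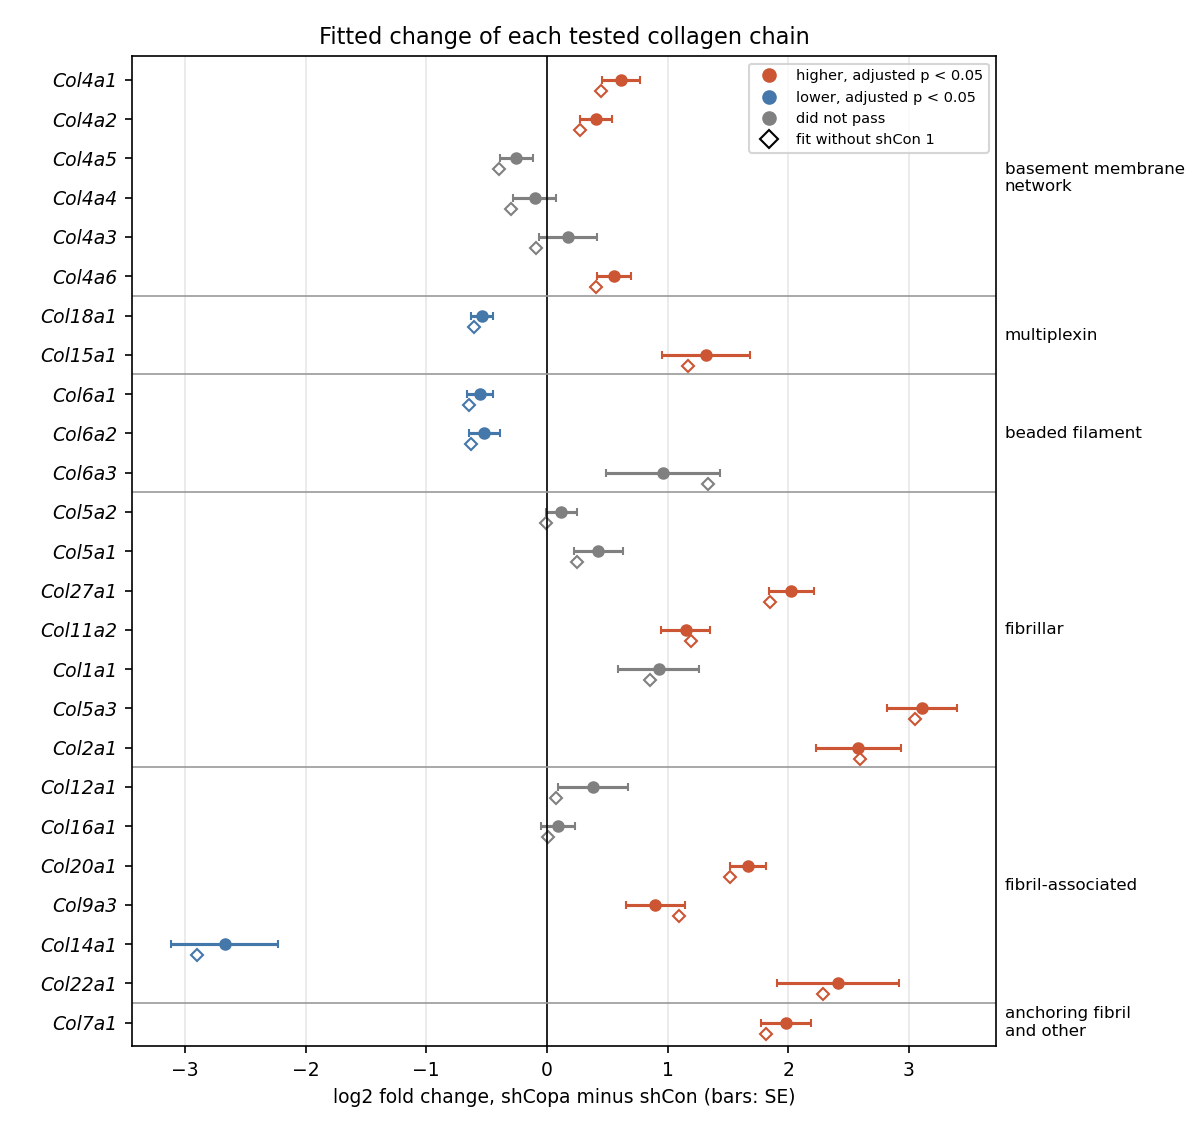
Log2 fold change of the 25 tested collagen chains, shCopa minus shCon, with SE bars and grouped by collagen class; filled points are colored by the edgeR call and open diamonds show the fit without shCon 1. Col5a3 lies farthest to the right at 3.11 and Col14a1 farthest to the left at -2.67, and Col18a1, Col6a1 and Col6a2 lie together near -0.5.

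**Figure D2:**
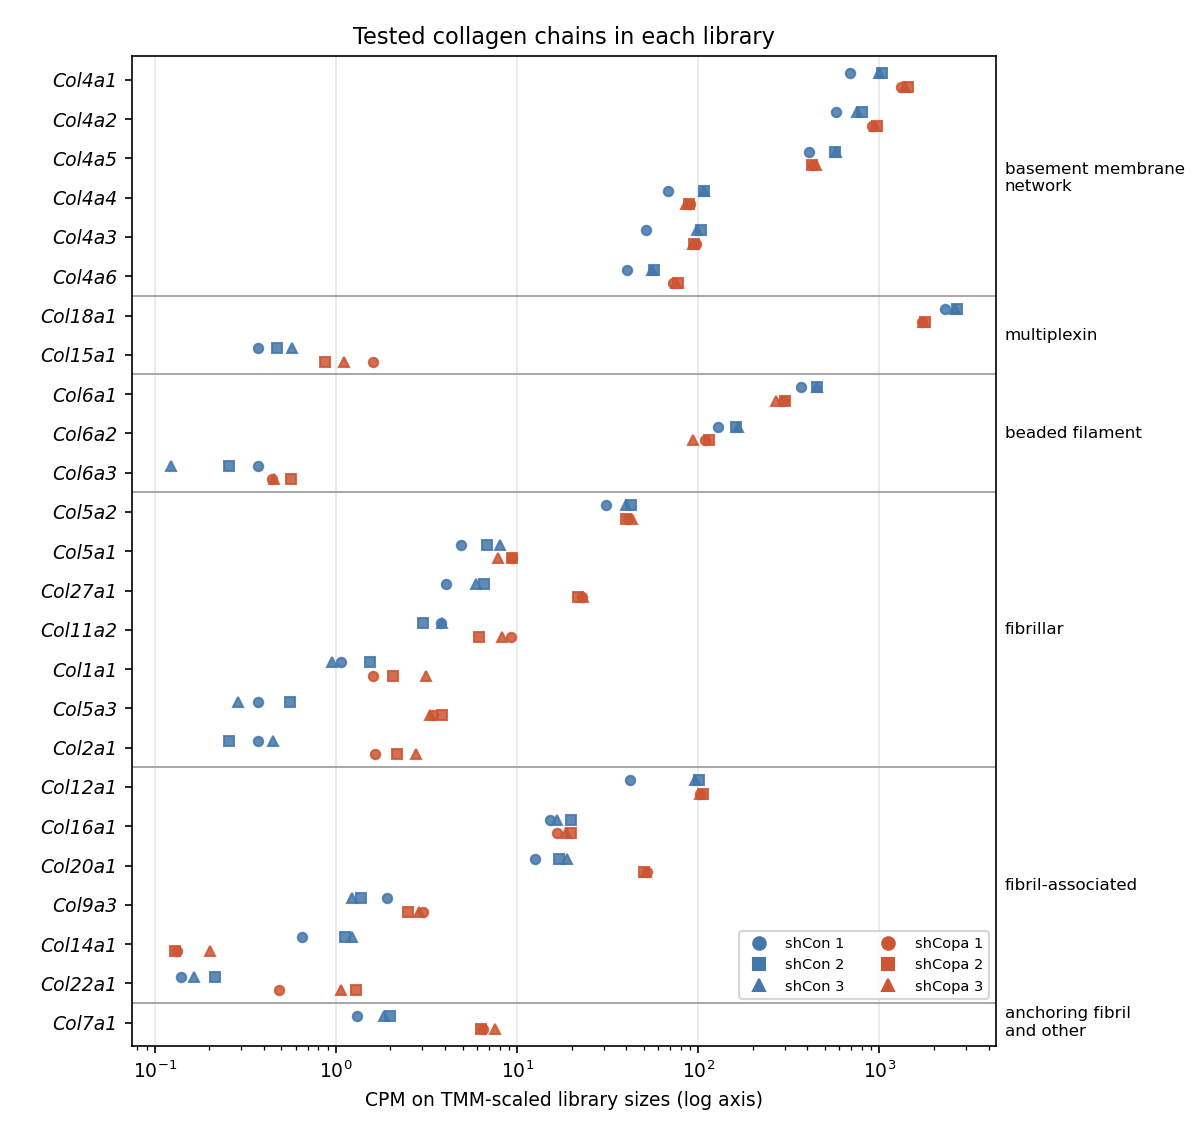
CPM of each tested collagen chain in the 6 libraries on a log axis, shCon in blue and shCopa in red, with a marker shape per replicate number. The chains span from about 0.12 CPM (Col6a3 in shCon 3) to 2671 CPM (Col18a1 in shCon 2).

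Most collagen counts came from a few chains. Col18a1, Col4a1, Col4a2 and Col4a5 together held 82.7 ± 0.839% of all collagen CPM in shCon and 82.9 ± 0.587% in shCopa (SD, n = 3 each). Summed over all 44 chains, collagen stood at 4761, 6158 and 6014 CPM in shCon 1 to 3 against 5303, 5570 and 5425 CPM in shCopa 1 to 3, so that the groups overlapped in total. The basement membrane chains (type IV) held 41.6 ± 2.75% of collagen CPM in shCon and 55.6 ± 0.569% in shCopa. Col18a1 alone held 45.2 ± 2.99% in shCon and 32.1 ± 0.203% in shCopa. In every shCopa library type IV held more than Col18a1, whereas in shCon the 2 were close to a tie outside shCon 1: Col18a1 held 48.6, 43.4 and 43.5% in shCon 1 to 3 and type IV 38.4, 43.4 and 42.9%. The ratio of Col4a1 to Col18a1 CPM was 0.296, 0.388 and 0.378 in shCon and 0.769, 0.812 and 0.798 in shCopa. No p-value is given for these shares, which are sums over the chains.

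**Figure D3:**
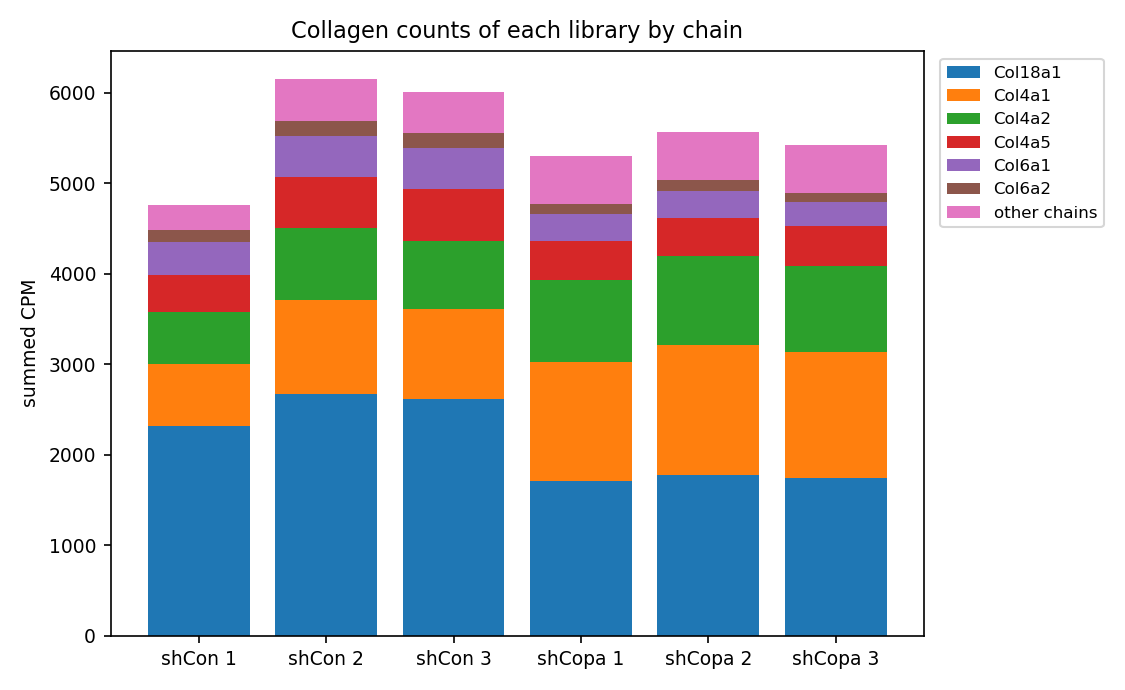
Stacked CPM of the 6 most abundant collagen chains and of all other chains in each library. The bars of shCopa hold a smaller Col18a1 segment (1713 to 1776 CPM against 2315 to 2671 in shCon) and a larger Col4a1 segment (1316 to 1442 CPM against 684 to 1037).

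Per kilobase of the longest transcript, Col18a1 was the highest chain in both groups, at 453 CPM per kb in shCon and 312 in shCopa. Col4a1 (137 and 209 CPM per kb), Col4a2 (110 and 146), Col6a1 (103 and 70.5), Col4a5 (79.0 and 66.3) and Col6a2 (30.8 and 21.5) followed in that order in both groups. The chain that moved most in this order among those above 1 CPM per kb was Col20a1, from place 13 at 3.21 CPM per kb in shCon to place 9 at 10.2 in shCopa. Neighbours in the order were not tested against each other. Col1a1, the main chain of fibroblast collagen, stood at only 0.200 CPM per kb in shCon and 0.382 in shCopa.

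Type IV collagen has 6 chains that combine into a few fixed trimers: the widespread network of chains 1 and 2, and the more restricted trimers of chains 3, 4 and 5 and of chains 5 and 6. All 6 were tested, of which 3 rose, none fell and 3 did not pass, beside 18.2% higher and 18.4% lower of all tested genes. Col4a1 stood at 684, 1037 and 991 CPM in shCon 1 to 3 against 1316, 1442 and 1391 CPM in shCopa 1 to 3. Each shCopa library was above each shCon library, and Col4a1 rose 1.53-fold (log2 fold change 0.61 ± 0.16 (SE), edgeR adjusted p = 0.0205). Its partner Col4a2 stood at 575, 798 and 756 CPM in shCon against 908, 974 and 950 CPM in shCopa. The groups of Col4a2 did not overlap either, and it rose 1.33-fold (0.41 ± 0.13, edgeR adjusted p = 0.0454). Col4a6, a chain of the trimer with chain 5, stood at 40.3, 57.0 and 55.6 CPM in shCon against 72.2, 77.2 and 75.2 CPM in shCopa. It rose 1.47-fold (0.55 ± 0.14, edgeR adjusted p = 0.0186).

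The other type IV chains did not pass in the fit of all libraries, and shCon 1 was the low library in each. Col4a5 stood at 409, 566 and 573 CPM in shCon against 428, 426 and 445 CPM in shCopa (log2 fold change -0.25 ± 0.14, edgeR adjusted p = 0.194). Col4a4 stood at 67.9, 108 and 108 CPM in shCon against 90.3, 89.1 and 85.3 CPM in shCopa (-0.10 ± 0.18, edgeR adjusted p = 0.69). Col4a3 stood at 51.1, 103 and 98.3 CPM in shCon against 97.8, 94.2 and 93.7 CPM in shCopa (0.18 ± 0.24, edgeR adjusted p = 0.605). In all 3 the shCopa values lay between shCon 1 and the pair of shCon 2 and 3. Without shCon 1, Col4a5 passed as lower (-0.40) and so did Col4a4 (-0.29), and Col4a3 turned to -0.09 without passing. With offsets for transcript length and GC content, Col4a5 (-0.32) and Col4a4 (-0.25) passed as lower as well. The calls of Col4a1 and Col4a6 were lost when any 1 shCopa library was left out, and so was that of Col4a2, which was also lost without shCon 3 and, at an edgeR adjusted p = 0.052, with no filter on low counts; Col4a2 kept its call in 9 of 15 alternatives.

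**Figure D4:**
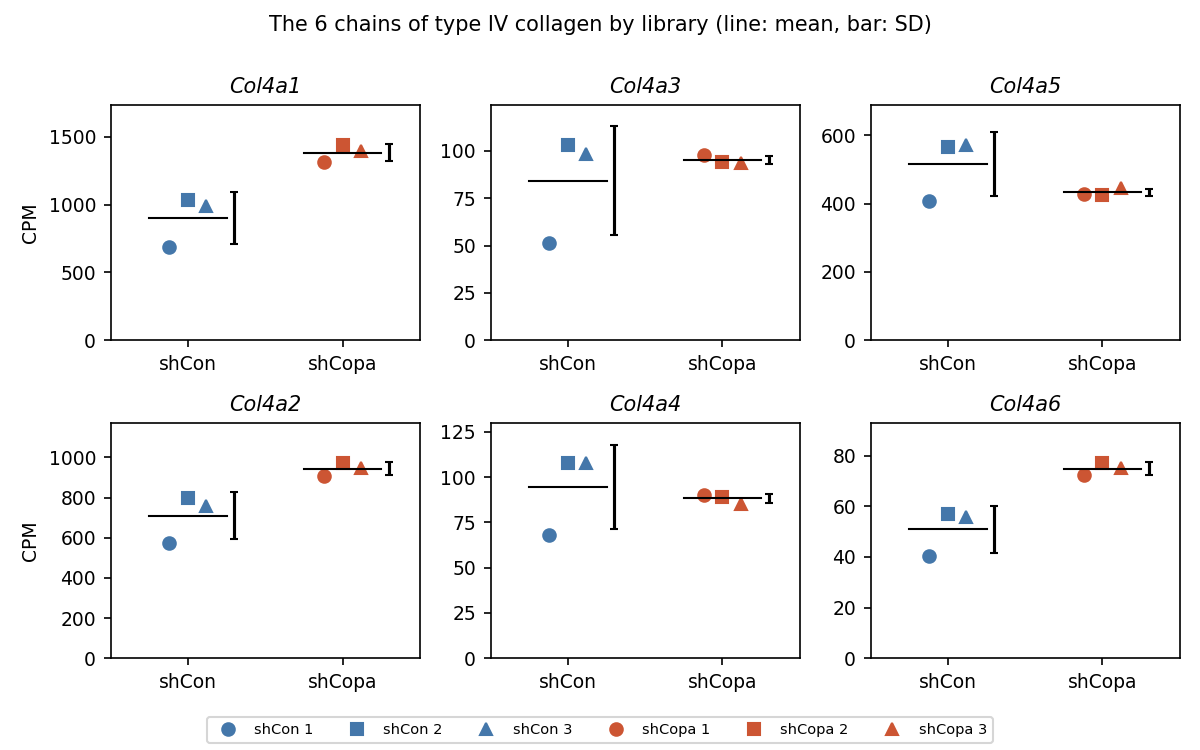
CPM of the 6 type IV chains by library, with each group's mean as a line and its SD as a bar; columns pair the chains whose genes are neighbours. Col4a1, Col4a2 and Col4a6 are higher in every shCopa library, while for Col4a3, Col4a4 and Col4a5 the shCon 1 point lies below shCon 2 and 3 and the groups overlap.

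The 6 type IV genes lie as 3 neighbouring pairs on opposite strands, each pair starting from a shared region. The ratio of Col4a5 to Col4a6 CPM was 10.1, 9.93 and 10.3 in shCon and 5.93, 5.52 and 5.92 in shCopa, so the library shCon 1 did not stand apart in this ratio. The ratio of Col4a1 to Col4a2 was 1.19, 1.30 and 1.31 in shCon and 1.45, 1.48 and 1.46 in shCopa. The ratio of Col4a3 to Col4a4 was 0.754, 0.956 and 0.912 in shCon and 1.08, 1.06 and 1.10 in shCopa. In each pair the groups did not overlap. An exact two-sided permutation test of the log2 ratio over the libraries gave p = 0.1 for each, the smallest value that 3 against 3 libraries allow, and 0.133 after adjustment over the 4 ratios of chain pairs tested. The fourth ratio is that of type VI, given with its chains.

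The starts of Col4a5 and Col4a6 are shown because these neighbours had the unequal changes above. The bases before each start site are from RefSeq on GRCm38.p6, on the strand of the gene and without annotated exons; Col4a5 is from chrX:141475169-141475369 (plus strand) and Col4a6 from chrX:141474096-141474326 (minus strand). Capitals mark matches to the searched motifs, which were a CCAAT box in Col4a5 and the interferon response core GAAANNGAA in Col4a6; a GC box (GGGCGG) in the full window of each lies in bases left out here as exons.
Col4a5: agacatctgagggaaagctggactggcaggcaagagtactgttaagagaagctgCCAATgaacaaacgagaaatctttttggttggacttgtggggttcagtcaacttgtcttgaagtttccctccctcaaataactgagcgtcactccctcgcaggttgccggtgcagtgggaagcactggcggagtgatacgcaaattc
Col4a6: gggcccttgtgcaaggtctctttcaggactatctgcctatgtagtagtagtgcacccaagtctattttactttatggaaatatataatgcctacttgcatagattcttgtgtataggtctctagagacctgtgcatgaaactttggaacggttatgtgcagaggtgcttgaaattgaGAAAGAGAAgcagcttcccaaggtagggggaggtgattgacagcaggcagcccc
The motif GAAANNGAA, on either strand, was found in the 250 bases before the start in 7.13% of all 32851 RefSeq windows. Among the 19 windows of the 17 tested chains that matched, it was in 2, those of Col4a6 and Col27a1. A match describes letters only; binding was not measured.

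Col18a1 and Col15a1 form the multiplexins, basement membrane collagens whose end fragments include endostatin in the case of Col18a1. They moved in opposite directions from very different levels. Col18a1 stood at 2315, 2671 and 2618 CPM in shCon against 1713, 1776 and 1744 CPM in shCopa. All shCopa libraries lay below all shCon libraries, and Col18a1 fell to 68.8% of control (-0.54 ± 0.09, edgeR adjusted p = 0.00352), with the call kept in all 15 alternatives. With the length and GC offsets its log2 fold change was -0.28. Col15a1 stood at 0.372, 0.472 and 0.575 CPM in shCon against 1.59, 0.864 and 1.11 CPM in shCopa. It rose 2.49-fold on few counts, 8 to 14 per shCon library and 20 to 36 per shCopa library (1.32 ± 0.36, edgeR adjusted p = 0.0257). The call of Col15a1 was lost without shCon 2, shCopa 1 or shCopa 3.

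Type VI collagen forms beaded filaments next to basement membranes from trimers of Col6a1, Col6a2 and a larger partner chain. The first 2 chains fell together. Col6a1 stood at 369, 452 and 451 CPM in shCon against 295, 302 and 270 CPM in shCopa, a fall to 68.2% of control (-0.55 ± 0.11, edgeR adjusted p = 0.00697). Col6a2 stood at 128, 161 and 166 CPM in shCon against 110, 114 and 93.5 CPM in shCopa, a fall to 69.8% of control (-0.52 ± 0.13, edgeR adjusted p = 0.0185). Neither chain's groups overlapped. The call of Col6a2 was lost without shCon 2, shCon 3, shCopa 1 or shCopa 3. The ratio of Col6a1 to Col6a2 was 2.80 ± 0.0785 in shCon and 2.74 ± 0.133 in shCopa (SD, n = 3 each), with groups that overlapped (exact two-sided permutation p = 0.5, and 0.5 adjusted over the 4 ratios). That partner, Col6a3, had 3 to 8 counts per shCon library and 9 to 13 per shCopa library and did not pass (0.96 ± 0.47, edgeR adjusted p = 0.15). The chains Col6a4, Col6a5 and Col6a6, which can replace Col6a3, had 0 to 4 counts each over all libraries.

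The fibrillar class had 7 tested chains, of which 4 rose and none fell, beside 18.2% higher and 18.4% lower of all tested genes. Among those that rose, Col5a3 and Col2a1 passed the filter on low counts through the shCopa libraries alone. All 4 that rose were low in shCon. Col27a1, a minor fibrillar chain known from cartilage, stood at 4.04, 6.57 and 5.92 CPM in shCon against 22.8, 21.6 and 23.2 CPM in shCopa. It rose 4.07-fold (2.03 ± 0.18, edgeR adjusted p = 0.000265), with tightly grouped shCopa libraries. Col5a3, a chain of type V collagen that joins Col5a1 and Col5a2 in some tissues, stood at 0.372, 0.558 and 0.288 CPM in shCon against 3.45, 3.85 and 3.29 CPM in shCopa. It rose 8.61-fold (3.11 ± 0.29, edgeR adjusted p = 0.00028), from 7 to 13 counts per shCon library to 65 to 89 per shCopa library. The other chains of its trimer did not pass: Col5a1 was at 6.60 ± 1.62 and 8.88 ± 0.904 CPM in shCon and shCopa (SD, n = 3 each), and Col5a2 at 30.9, 42.6 and 39.9 CPM in shCon and 40.7, 39.9 and 42.9 CPM in shCopa. The groups of Col5a1 and of Col5a2 overlapped, and the log2 fold change of Col5a2 went from 0.12 to -0.01 without shCon 1. With the length and GC offsets, Col5a1 passed as higher (0.46).

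Col2a1, the main chain of cartilage collagen, stood at 0.372, 0.258 and 0.452 CPM in shCon against 1.64, 2.16 and 2.78 CPM in shCopa. It rose 5.98-fold (2.58 ± 0.35, edgeR adjusted p = 0.00136) from 6 to 11 counts per shCon library. Col11a2, which forms mixed fibrils with type II collagen, stood at 3.81, 3.01 and 3.86 CPM in shCon against 9.25, 6.18 and 8.29 CPM in shCopa. It rose 2.22-fold (1.15 ± 0.20, edgeR adjusted p = 0.00439). In both chains the lowest shCopa library was above the highest shCon library. Col1a1, the chain of type I collagen that bone and scar tissue hold most, stood at 1.07, 1.55 and 0.945 CPM in shCon against 1.59, 2.07 and 3.14 CPM in shCopa. It did not pass (0.93 ± 0.34, edgeR adjusted p = 0.0678), although it passed without shCon 1 (0.85) and with the length and GC offsets (1.06).

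Fibril-associated collagens sit on the surface of fibrils and link them to other matrix. In this class 6 chains were tested. Col9a3, Col20a1 and Col22a1 rose, Col14a1 fell and 2 did not pass, beside 18.2% higher and 18.4% lower of all tested genes. Col20a1 stood between 12.6 (shCon 1) and 18.7 CPM (shCon 3) and at 52.2, 49.9 and 51.5 CPM in shCopa. It rose 3.18-fold (1.67 ± 0.15, edgeR adjusted p = 0.000257), and the shCopa libraries were closely alike. The estimated counts of Col20a1 were not whole in any library, and 1.54% of its annotated exon bases are shared with the same-strand gene BX649560.1. Col22a1, which is found at tissue junctions, had 3 to 5 counts per shCon library and 11, 30 and 21 counts in shCopa 1 to 3. It rose 5.33-fold in the fit (2.41 ± 0.51, edgeR adjusted p = 0.00844). Col9a3 stood at 1.90, 1.37 and 1.23 CPM in shCon against 3.01, 2.51 and 2.88 CPM in shCopa and rose 1.86-fold (0.90 ± 0.24, edgeR adjusted p = 0.0235). That call was lost when any library except shCon 1 was left out. The other chains of type IX collagen, Col9a1 and Col9a2, had 0 and 2 counts over all libraries.

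Col14a1, which binds fibrils through decorin, was the fibril-associated chain that fell. It had 14, 26 and 30 counts in shCon 1 to 3 and 3, 3 and 4 counts in shCopa 1 to 3, or 0.650 to 1.23 CPM against 0.130 to 0.202 CPM. The fit gave 15.7% of control (-2.67 ± 0.44, edgeR adjusted p = 0.0032). Col12a1, another fibril-associated chain, stood at 42.1, 101 and 95.7 CPM in shCon against 102, 106 and 102 CPM in shCopa. Its low value was that of shCon 1, and it did not pass (0.38 ± 0.29, edgeR adjusted p = 0.343; 0.07 without shCon 1). Col16a1 was at 15.1, 19.8 and 16.5 CPM in shCon and 16.5, 19.8 and 18.6 CPM in shCopa, with groups that overlapped (0.09 ± 0.14, edgeR adjusted p = 0.632). With the length and GC offsets Col16a1 passed as higher (0.39).

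Col7a1, the chain of the anchoring fibrils that fasten basement membrane to the tissue beneath, stood at 1.30, 1.98 and 1.85 CPM in shCon. In shCopa it stood at 6.51, 6.31 and 7.54 CPM, above every control library. Col7a1 rose 3.95-fold (1.98 ± 0.21, edgeR adjusted p = 0.000443). Of the 16 chains called, 10 kept their call in every alternative that gave a value for them: Col2a1, Col5a3, Col6a1, Col7a1, Col11a2, Col14a1, Col18a1, Col20a1, Col22a1 and Col27a1. Of these, Col2a1, Col5a3 and Col22a1 passed the filter on low counts through the shCopa libraries alone, and Col14a1 through the shCon libraries alone.

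The bases before the starts of Col5a3 and Col7a1, which rose from low levels, and of the Col18a1 start that lies farther upstream, which fell from the highest level, are shown for comparison. They are from RefSeq on GRCm38.p6, in the gene's direction and without annotated exons: Col5a3 from chr9:20815118-20815317 (minus strand), Col7a1 from chr9:108953336-108953585 (plus strand) and Col18a1 from chr10:77166549-77166780 (minus strand). Capitals mark the GC box GGGCGG and the CCAAT box, on either strand.
Col5a3: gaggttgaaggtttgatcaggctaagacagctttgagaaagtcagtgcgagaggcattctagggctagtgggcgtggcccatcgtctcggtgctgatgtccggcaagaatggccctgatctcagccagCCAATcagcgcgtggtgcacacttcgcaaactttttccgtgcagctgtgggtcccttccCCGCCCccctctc
Col7a1: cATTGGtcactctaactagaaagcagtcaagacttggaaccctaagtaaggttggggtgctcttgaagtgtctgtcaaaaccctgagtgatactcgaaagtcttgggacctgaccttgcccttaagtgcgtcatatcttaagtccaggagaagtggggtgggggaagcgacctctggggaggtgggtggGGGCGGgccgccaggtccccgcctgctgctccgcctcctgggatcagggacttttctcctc
Col18a1: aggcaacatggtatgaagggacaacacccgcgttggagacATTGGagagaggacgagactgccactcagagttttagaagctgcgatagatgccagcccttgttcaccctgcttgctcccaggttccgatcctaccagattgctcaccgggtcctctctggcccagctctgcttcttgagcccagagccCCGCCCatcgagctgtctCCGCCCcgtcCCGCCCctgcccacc
Both motifs were present in all 3 windows shown, but not in those of every chain. Col4a2, which rose, had both. Col11a2, which rose, and Col6a2, which fell, had the GC box without CCAAT, and Col6a1, which fell, had neither. Whether the motifs part chains that rose from chains that fell was not tested. A RefSeq window was matched for 17 of the 25 tested chains (19 windows), and the 250 bases before the start were searched on both strands for 6 motifs. The GC box GGGCGG was in 12 of the 19 windows, from 11 of the 17 chains, and in 32.7% of all RefSeq windows. CCAAT was in 7 of the 19 windows, from 7 chains, and in 33.8% of all. The TATA box TATAAA was in 1 window, that of Col11a2 (12.4% of all windows), and the AP-1 site TGANTCA in 1, that of Col6a1 (6.75% of all). The element TGACGTGG of CREB3-family and unfolded protein response factors was found in none of the 19 windows and in 0.563% of all. Windows on GRCm38 may differ from the start sites used in these cells.

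The 19 chains with too few counts to judge did not reach 0.443 CPM in at least 3 libraries. Col6a5, Col9a1, Col13a1, Col19a1 and Col25a1 had no count in any library, where 3 counts would be the upper limit that a count of 0 allows. Col3a1 had no count in shCon and 0, 3 and 2 counts in shCopa 1 to 3, and Col1a2 had 0, 1 and 0 counts in shCon and 3, 9 and 6 in shCopa. Both are chains of fibroblast collagens, and Col1a2 passed as higher in DESeq2, which tested it (adjusted p = 0.0387). Col26a1 had 0.97, 0 and 0.33 estimated counts in shCon and 3, 6 and 3 in shCopa. Col10a1 had 4, 3 and 5 counts in shCon and 0, 2 and 1 in shCopa. Col11a1, at 3, 3 and 14 counts in shCon and 4, 9 and 2 in shCopa, had the highest total of this set, 35 counts. Col28a1 had 1, 6 and 5 counts in shCon and 1, 2 and 10 in shCopa, and Col23a1 had 3, 2 and 6 in shCon and 8, 2 and 4 in shCopa. Col8a2 had 1 to 3 counts in each library. Col24a1, Col17a1, Col8a1, Col6a6, Col6a4 and Col9a2 had totals of 9, 7, 6, 4, 3 and 2 counts. No chain of the short-chain network or transmembrane classes could be tested.

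The genes that act on collagen were taken from 6 lists of 72 genes, of which 57 were tested. Of these, 18 passed as higher, 9 as lower and 30 as neither, with a median log2 fold change of 0.14, beside the 18.2% higher and 18.4% lower of all genes. Among 12 tested enzymes that hydroxylate or glycosylate collagen in the ER, 3 rose, 2 fell and 7 did not pass. P3h2, a prolyl 3-hydroxylase that acts on type IV collagen, rose 1.97-fold (log2 fold change 0.98 ± 0.13). Plod2, the lysyl hydroxylase of the collagen ends, rose 1.58-fold (128 ± 14.3 to 203 ± 0.907 CPM, SD, n = 3 each), while Plod1, which acts on the helix, fell to 64.3% of control (33.5 ± 1.75 to 21.5 ± 0.910 CPM). P3h4, a partner of lysyl hydroxylase in the ER, fell to 44.1% (log2 fold change -1.18 ± 0.20). Colgalt1, a collagen galactosyltransferase named after its values were seen, rose 1.37-fold, a call lost without shCopa 2 or shCopa 3. The tested subunits of prolyl 4-hydroxylase did not pass, with P4ha1 at 238 ± 15.2 and 241 ± 16.0 CPM in shCon and shCopa and P4hb at 794 ± 40.1 and 892 ± 45.7 CPM. P4hb passed as higher without shCon 1 (0.20) and with the length and GC offsets (0.18).

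Collagen folding and export had 13 tested genes, of which 3 rose and none fell. With 23.1% passing, the list was below the 36.5% of all tested genes, and its median log2 fold change was 0.08. Serpinh1, which encodes HSP47, stood at 911, 749 and 716 CPM in shCon against 806, 857 and 850 CPM in shCopa. Its groups overlapped and it did not pass (0.08 ± 0.11, edgeR adjusted p = 0.608), whereas without shCon 1, its highest control library, it passed as higher (0.19), as it did with the length and GC offsets (0.16). Mia3, which encodes TANGO1, the receptor that loads collagen at ER exit sites, stood at 85.8, 122 and 123 CPM in shCon against 93.2, 95.7 and 102 CPM in shCopa. It did not pass (-0.19 ± 0.15, edgeR adjusted p = 0.356), and without shCon 1 it passed as lower (-0.34). The genes that rose were Sec24d, a COPII coat subunit needed for collagen export (0.90 ± 0.10), Fkbp14, a prolyl isomerase of the ER (0.54 ± 0.11), and Creb3l1, a transcription factor cleaved in the Golgi that drives collagen genes in bone (0.55 ± 0.15). The call of Creb3l1 was lost without shCon 2, shCon 3, shCopa 2 or shCopa 3 and with no filter on low counts, and was kept in 9 of 15 alternatives.

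Extracellular processing and cross-linking had 12 tested genes, of which Lox rose and 4 fell, beside 18.2% higher and 18.4% lower of all tested genes. Pxdn encodes peroxidasin, which makes the sulfilimine bonds that join type IV collagen trimers. It stood at 222, 320 and 308 CPM in shCon against 98.2, 95.5 and 91.0 CPM in shCopa. All shCopa libraries were below all shCon libraries, and Pxdn fell to 33.5% of control (-1.58 ± 0.15, edgeR adjusted p = 0.000296) while Col4a1 and Col4a2 rose. Among lysyl oxidases, which cross-link collagen and elastin, Lox and Loxl1 passed, in opposite directions, and Loxl2, Loxl3 and Loxl4 did not pass. Lox stood at 21.9, 26.4 and 28.1 CPM in shCon against 55.0, 55.3 and 57.1 CPM in shCopa and rose 2.19-fold (1.13 ± 0.11, edgeR adjusted p = 0.000369). Loxl1 stood at 254, 188 and 188 CPM in shCon against 80.8, 90.0 and 74.5 CPM in shCopa and fell to 38.9% of control (-1.36 ± 0.15, edgeR adjusted p = 0.000529). Loxl2, named after its values were seen, was at 375 ± 60.0 CPM in shCon and 482 ± 18.2 CPM in shCopa. Its groups did not overlap (0.36 ± 0.13, edgeR adjusted p = 0.0636). Loxl2 passed as higher without shCon 1 (0.23), with the length and GC offsets (0.32), with no scaling factors (0.41) and in DESeq2 (0.35). Bmp1, the protease that removes the end propeptide of fibrillar collagens, fell to 74.6% of control (-0.42 ± 0.08). Pcolce, which enhances that protease and was named after its values were seen, also fell (-0.66 ± 0.16), a call lost without shCopa 1 or shCopa 2.

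Among 8 tested partners of collagen fibrils and basement membranes, 3 rose and none fell in the fit of all libraries. The share that passed, 37.5%, was near the 36.5% of all tested genes. Without shCon 1, Hspg2 (-0.28) and Dcn (-0.24) passed as lower and Fn1 (0.14) as higher. Hspg2 and Fn1 were named after their values were seen. Sparc, a collagen-binding matrix protein, rose 1.32-fold (0.40 ± 0.08), and the nidogens Nid2 and Nid1, which link type IV collagen to laminin, rose 1.43-fold and 1.46-fold. The call of Sparc was lost without shCopa 2, that of Nid2 without shCopa 2 or shCopa 3, and that of Nid1 without shCon 3 or any 1 shCopa library.

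Of 7 tested collagen receptors, 5 rose, Ddr1 fell and Itga10, named after its values were seen, did not pass (0.68 ± 0.31). Beside this, 18.2% of all tested genes rose and 18.4% fell. Mrc2, which encodes the collagen uptake receptor Endo180, stood at 0.464, 0.472 and 0.740 CPM in shCon against 5.89, 4.62 and 4.86 CPM in shCopa. It rose 9.04-fold (3.18 ± 0.26, edgeR adjusted p = 0.00017). The discoidin domain receptors, kinases that collagen activates, went opposite ways. Ddr2 rose 5.83-fold (2.28 ± 0.527 to 13.4 ± 1.41 CPM, SD, n = 3 each), and Ddr1, the epithelial member, fell to 66.4% of control (717 ± 31.2 to 477 ± 23.8 CPM). Itgb1, the beta chain of all collagen-binding integrins, rose 1.74-fold, from 1227 ± 169 to 2135 ± 58.1 CPM. Its partner Itga2 rose 2.61-fold (1.38 ± 0.22) and Itga1, named after its values were seen, 2.21-fold (1.14 ± 0.20).

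Of 9 genes of collagen cleavage 5 were tested, and 3 passed as higher and 2 as lower, beside 18.2% and 18.4% of all tested genes. Mmp9 and Fap, among the higher, reached the minimum of the count filter in no shCon library and so were tested through shCopa alone. Mmp14, a membrane-bound collagenase, stood at 637, 455 and 449 CPM in shCon against 223, 241 and 237 CPM in shCopa and fell to 45.5% of control (-1.14 ± 0.15, edgeR adjusted p = 0.00121). Mmp2, a type IV collagenase that Mmp14 activates, fell to 62.1% of control (110 ± 2.36 to 68.3 ± 8.57 CPM, SD, n = 3 each). The genes that rose were low in both groups: Mmp9 was at 0.0584 ± 0.0508 and 0.987 ± 0.458 CPM, Fap at 0.172 ± 0.112 and 1.01 ± 0.0657 CPM, and Mmp13 at 3.07 ± 0.248 and 4.48 ± 0.328 CPM. The call of Mmp13, named after its values were seen, was kept in only 5 of 15 alternatives.

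**Figure D5:**
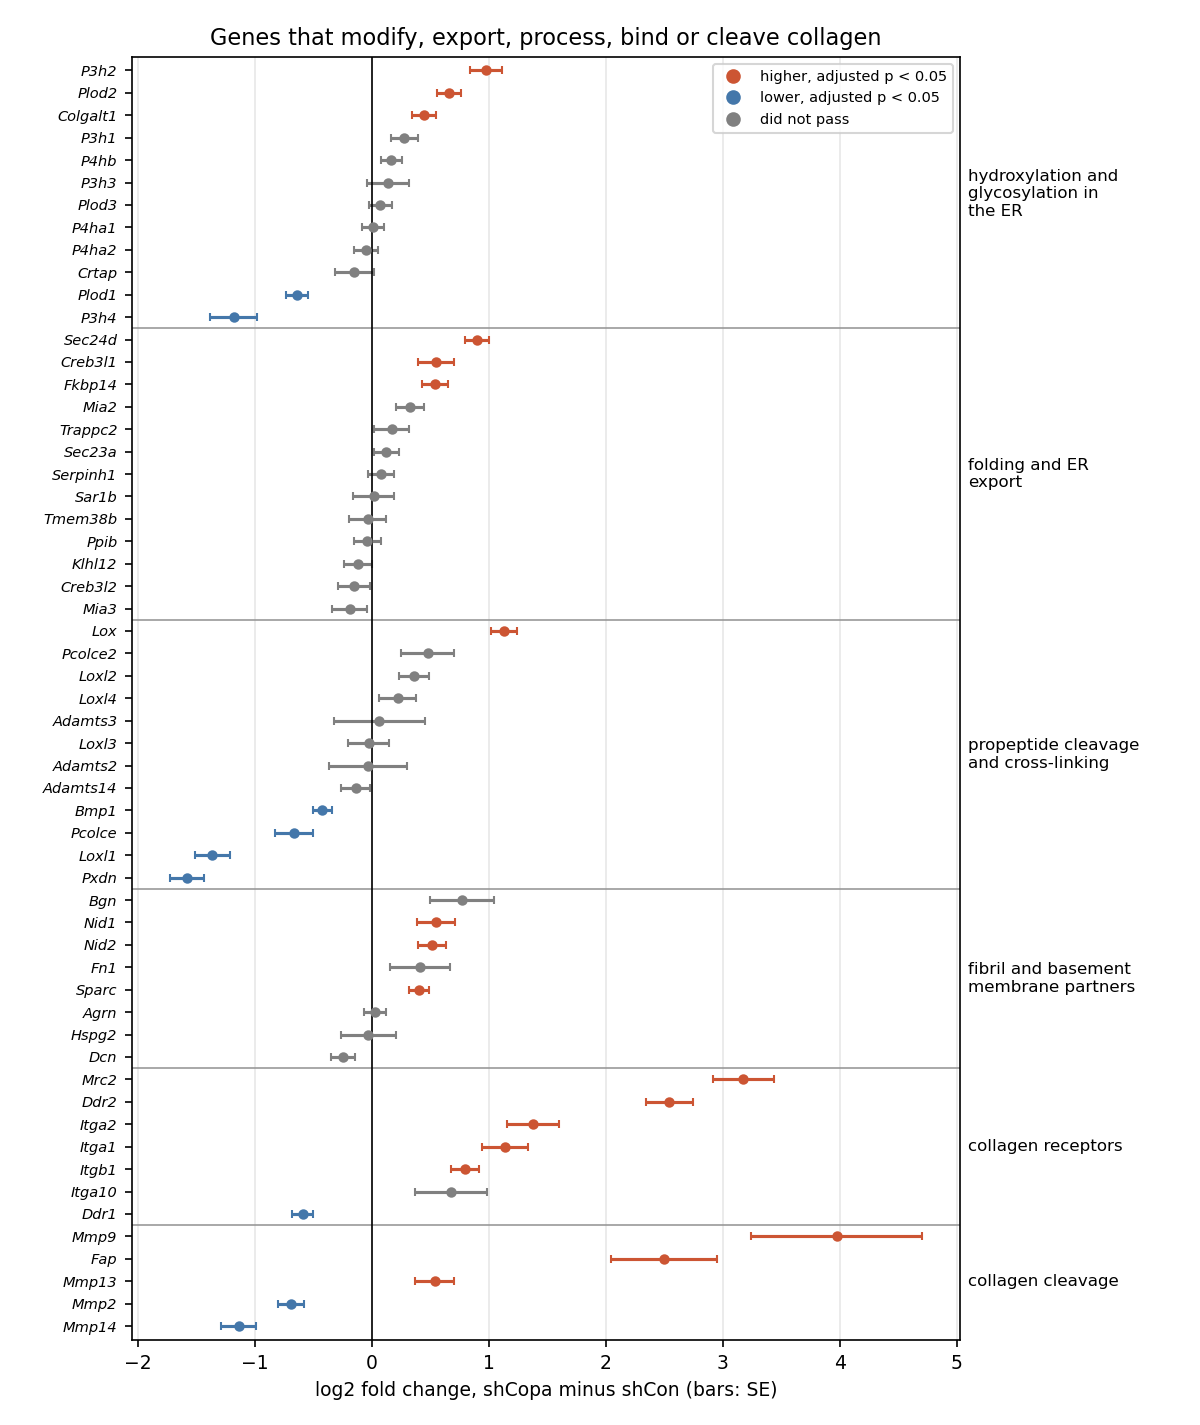
Log2 fold change with SE bars of the 57 tested genes that modify, fold, export, process, bind or cleave collagen, shCopa minus shCon, grouped by role and ordered by value. Receptors lie mostly to the right of 0 with Ddr1 as the exception, and in cross-linking Pxdn and Loxl1 lie farthest left at -1.58 and -1.36.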

How the data were processed

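Per the labels' protocols, TRIzol RNA went into a standard mRNA library kit and was sequenced as pairs on an Illumina HiSeq. The authors deposited estimated counts, neither scaled nor pooled, with 1 row per Ensembl identifier. GRCm39 and the programs HISAT2 (2.0.5), featureCounts, HTSeq, Trimmomatic and DESeq2 are named in the submitters' processing notes. The program behind the counts and its use of strand were not given in the sources used here, so reads of overlapping genes cannot be assigned with certainty. Symbols came from GENCODE M21 (52081 of 55414 identifiers) by matching identifiers, as did lengths and GC content, and no coordinates of that annotation are printed. Promoter windows are RefSeq's on GRCm38.p6.

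Estimated counts were rounded and fitted on the whole table in edgeR 4.0.16 (R 4.3.3): TMM factors, filterByExpr, robust quasi-likelihood F test, group as the only term, Benjamini-Hochberg adjustment over all tested genes and a threshold of 0.05. CPM values use TMM-scaled library sizes. Only genes past the threshold are said to rise or fall. SE is the fitted change over the root of F. The steps were tested on simulated data. The floor of 3 counts covers counting error only.

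Alternatives were RLE, upper quartile and no scaling factors, no filter, at least 1 CPM in 3 libraries, limma-voom (limma 3.58.1), DESeq2 1.42.0, the replicate number as a block, offsets from trends on length and GC content (mgcv 1.9.3), and each library left out. Each chain is accounted for. Of each list on collagen handling, up to 4 called genes with the smallest adjusted p are named, with Serpinh1, P4hb, P4ha1, Plod1, Plod2, Mia3, Lox, Itga2, Itgb1 and Ddr1 whatever their result. The chains and lists were chosen with earlier results of these data known.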

Additional observations from a re-analysis of the deposited data

How the results depend on the processing

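The numbers of chains that rose and fell, 12 and 4, were 12 and 4 with RLE, upper quartile or no scaling factors, and with limma-voom, 12 and 4 with no filter, where Col1a2 joined and Col4a2 was lost, 13 and 4 with DESeq2, 10 and 3 with the filter of 1 CPM in 3 libraries, and 15 and 6 with the length and GC offsets. With 1 library left out, 7 to 13 chains rose and 3 to 6 fell, 12 to 25 genes of the collagen handling lists rose and 8 to 15 fell, and 3533 to 8439 of all genes passed; the highest of each came without shCon 1, and the fewest rising chains without shCopa 1 or shCopa 3. The median log2 fold change of the tested chains ran from 0.41 without shCon 1 to 0.64, and was 0.15 over the 14 chains with a mean of at least 10 CPM. Directions turned without a call in leave-one-out fits of Col4a3 (-0.086 without shCon 1, up to 0.34). The same held for Col5a2 (-0.0078 without shCon 1, up to 0.21) and P4ha1 (-0.032 to 0.064). Col4a4 turned to 0.0012 without shCon 2, whereas its lowest value, -0.29 without shCon 1, passed as lower. P4ha1 also turned with no filter (-0.016) and with the length and GC offsets (-0.12). The cause of these turns was not tested. Deviations of same-numbered libraries from their group means correlated at -0.162, -0.058 and -0.114, so the numbers were not taken as pairs; with the replicate block 9 chains rose and 3 fell (the calls of Col4a2, Col6a2, Col9a3 and Col15a1 were lost), 16 and 9 genes of the handling lists rose and fell (Creb3l1 and Mmp13 were lost), and 3903 of all genes passed. Depth limited the 19 untested chains and those with under 15 counts per shCon library.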
